A study of Mus musculus with 6 samples.

Results

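This report follows 10 mature miRNAs from the maternally expressed side of the imprinted Dlk1-Dio3 region of mouse chromosome 12, in vesicles recovered from brain. They are mmu-miR-127-3p, mmu-miR-136-5p, mmu-miR-136-3p, mmu-miR-431-5p, mmu-miR-433-3p, mmu-miR-434-3p, mmu-miR-434-5p, mmu-miR-337-5p, mmu-miR-337-3p and mmu-miR-370-3p, and they come from 7 hairpins. They were chosen by name and position, though with earlier results of these data known. All 10 were found among the 1926 rows of the deposited table, none of them in a row that merges several miRNAs. Small RNA was sequenced from brain-derived extracellular vesicles (BDEVs), the membrane particles that cells release. The SE-BDEV group (3 libraries) is of mice that had gone through status epilepticus, a prolonged seizure. The CON-BDEV group (3 libraries) is of control mice. All titles carry day 10. The sources used here do not give what the day is counted from, how the seizures were induced, or the strain, age and sex of the mice. They also do not say whether each library is from its own mouse. The p-values below therefore reflect how far these 6 libraries scatter, and that scatter may be technical.

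The Dlk1-Dio3 region is read differently on its parental copies. The maternal copy yields non-coding RNAs, among them Meg3, an antisense transcript of Rtl1, Rian and Mirg, and it carries a large set of miRNA hairpins. The paternal copy yields the protein-coding genes Dlk1, Rtl1 and Dio3. Rtl1 is a retrotransposon-derived gene needed for the capillaries of the placenta, and miRNAs cut from its antisense transcript pair with the Rtl1 messenger along their whole length and direct its cleavage. Many miRNAs of the region are abundant in brain.

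The mature sequences are shown because they set apart the miRNAs that match Rtl1 from those that do not. They come from RefSeq (GRCm38.p6), where all 10 names matched, and the seed, bases 2 to 8, is in capitals.
miR-431-5p: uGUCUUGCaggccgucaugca
miR-433-3p: aUCAUGAUgggcuccucggugu
miR-127-3p: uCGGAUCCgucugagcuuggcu
miR-434-5p: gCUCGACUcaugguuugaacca
miR-434-3p: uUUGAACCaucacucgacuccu
miR-136-5p: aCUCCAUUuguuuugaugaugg
miR-136-3p: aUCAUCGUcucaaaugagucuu
miR-337-5p: cGGCGUCAugcaggaguugauu
miR-337-3p: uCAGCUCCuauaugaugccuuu
miR-370-3p: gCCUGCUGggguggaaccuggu
No 2 of them shared a seed, and no other mature mouse miRNA among the 1679 of that RefSeq table carried any of the 10 seeds. The longest run of bases shared by 2 different hairpins was 9 bases, CGUCAUGCA, in miR-431-5p and miR-337-5p. The arms of miR-434 shared UUUGAACCA, also of 9 bases.

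For 7 of the 10 miRNAs the exact reverse complement of the whole mature sequence lies once in the Rtl1 transcript of GENCODE M21 (GRCm38). The 3 without such a match were both arms of miR-337 and miR-370-3p. None of the 10 had an exact full-length site in any other protein-coding transcript of that annotation. The Rtl1 stretches opposite the most abundant of the 7 and opposite miR-433-3p are given in DNA letters.
Rtl1 opposite miR-127-3p: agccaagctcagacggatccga
Rtl1 opposite miR-433-3p: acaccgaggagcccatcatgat
Of the other arms of these hairpins, miR-127-5p, miR-431-3p and miR-433-5p matched Rtl1 in the same way and miR-370-5p did not. All matches fell in the coding part of Rtl1. The matching arms lie opposite the Rtl1 exon and the others lie outside it, so the matches restate position. A match describes these letters and is not evidence of cleavage in these samples.

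In GRCm38.p6 the 7 hairpins lie on the plus strand of chromosome 12 within 32548 bases. The miR-337 hairpin, at chr12:109585789-109585885, lies downstream of Meg3 and outside Rtl1. The next 5 lie within the coding exon of Rtl1, which is read from the minus strand. They are miR-431 (chr12:109590447-109590537), miR-433 (chr12:109591715-109591838), miR-127 (chr12:109592846-109592915), miR-434 (chr12:109594506-109594599) and miR-136 (chr12:109595327-109595388). The miR-370 hairpin, at chr12:109618258-109618336, lies beyond Rtl1 and inside the gene span of Rian. The submitters' processing notes name the build mm9 and the deposited tables hold no coordinates, so these positions serve only to place the hairpins.

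Values are in RPM, read counts scaled so that every library has the same total. The reads of the listed miRNAs came to 9391887, 4996073 and 6749631 in SE-BDEV 1, 2 and 3 and 4400167, 8147118 and 6578279 in CON-BDEV 1, 2 and 3. For this the smallest value above 0 of each library was taken as 2 reads. miR-24-3p, no member, was listed at 0 in 4 libraries and at 3128 RPM in SE-BDEV 3 and 3543.8 RPM in CON-BDEV 3. The 4 neuronal marker miRNAs summed to 19322 to 37113 RPM in SE-BDEV and 23125 to 28314 RPM in CON-BDEV, and all 4 were above 0 in these brain vesicles. The 5 microglial and immune markers summed to 309 to 482 RPM in SE-BDEV and 75.1 to 97.6 RPM in CON-BDEV. Of these 5, miR-155-5p and miR-142a-5p are among the 3 miRNAs called in the comparison below (limma adjusted p = 2.84e-04 and 0.00761). That sum and those calls are therefore not separate results, and a shift in cell types was not tested. The 2 endothelial markers summed to 4116 to 6342 RPM in SE-BDEV and 2828 to 4276 RPM in CON-BDEV. The 3 oligodendrocyte markers summed to 198 to 296 RPM in SE-BDEV and 137 to 169.9 RPM in CON-BDEV, with miR-219a-5p at 0 throughout, and the 3 muscle markers to 170.1 to 265 RPM in SE-BDEV and 139 to 184 RPM in CON-BDEV. Of the 3 red cell markers miR-451a and miR-144-3p were at 0 in all 6 libraries, and the sum was 102 to 111 RPM in SE-BDEV and 83.6 to 199 RPM in CON-BDEV. The part of these shifts in the values below was not tested, and fewer vesicles of a cell type and less of a miRNA per vesicle cannot be told apart in such samples.

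The 10 miRNAs together made up 1.23%, 0.912% and 0.837% of all RPM in SE-BDEV 1, 2 and 3 and 1.02%, 1.14% and 1.04% in CON-BDEV 1, 2 and 3. This was 0.993% ± 0.209 in SE-BDEV and 1.07% ± 0.0663 in CON-BDEV (SD, n = 3 each), and the groups overlapped. They accounted for 35.1% ± 5.18 of the RPM of all Dlk1-Dio3 miRNAs listed here in SE-BDEV and 34.1% ± 3.03 in CON-BDEV (SD, n = 3 each). miR-127-3p alone held 82.0% to 85.5% of the summed RPM of the 10 over the 6 libraries. Counting both arms of each hairpin, miR-127 held 82.9% of the mean RPM of the 7 hairpins and miR-337 held 12.6%, while each of the others held 1.45% or less. Neighbouring hairpins of the same antisense transcript thus differed in mean level from 37.2 RPM (miR-136) to 8495 RPM (miR-127) in SE-BDEV and from 23.2 RPM to 9079.5 RPM in CON-BDEV.

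**Figure D1:**
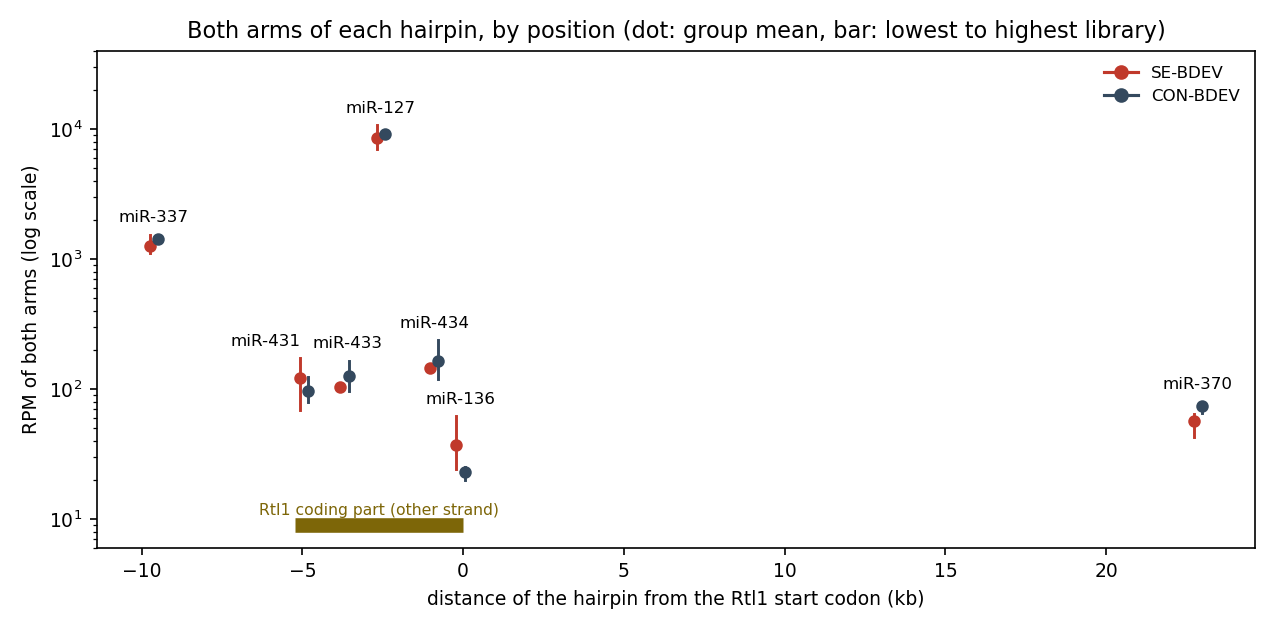
Summed RPM of both arms (log axis) of each of the 7 hairpins against the distance of the hairpin from the Rtl1 start codon in kb, along the plus strand of GRCm38. Dots are group means of 3 libraries, red for SE-BDEV and dark for CON-BDEV, and bars run from the lowest to the highest library. miR-127 stands highest, inside the Rtl1 coding part, with less abundant hairpins on both sides of it.

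mmu-miR-127-3p, the best known of these miRNAs and a repressor of Rtl1 in the mouse placenta, stood at 10503, 7731 and 6903 RPM in SE-BDEV 1, 2 and 3 and at 8571, 9789.7 and 8537 RPM in CON-BDEV 1, 2 and 3. SE-BDEV 1 lay above all CON-BDEV libraries, and SE-BDEV 2 and 3 lay below all of them. It ranked between 12 and 19 among the miRNAs of each library. Its mean was 8379 ± 1885 RPM in SE-BDEV and 8966 ± 714 RPM in CON-BDEV (SD, n = 3 each).

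The second in level, mmu-miR-337-5p, does not match Rtl1. It stood at 1515, 1112 and 1089.7 RPM in SE-BDEV 1, 2 and 3 and at 1367, 1411 and 1439 RPM in CON-BDEV 1, 2 and 3, and ranked between 37 and 49. Again SE-BDEV 1 lay above all CON-BDEV libraries and SE-BDEV 2 and 3 below, and the CON-BDEV values were close together. Its mean was 1239 ± 239 RPM in SE-BDEV and 1405 ± 36.3 RPM in CON-BDEV (SD, n = 3 each). The library order of the 2 was the same within SE-BDEV, where library 1 was high and library 3 low. Within CON-BDEV it differed, with miR-127-3p highest in library 2 and miR-337-5p highest in library 3.

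Below them, mmu-miR-434-3p, one of the Rtl1-matching arms, stood at 129.7, 139 and 140.3 RPM in SE-BDEV 1, 2 and 3 and at 111, 128 and 225 RPM in CON-BDEV 1, 2 and 3. CON-BDEV 3 was above all other libraries. The rarer arm of its hairpin, miR-434-5p, ran from 6.07 to 10.0 RPM in SE-BDEV and from 6.14 to 12.6 RPM in CON-BDEV, with CON-BDEV 3 again the highest.

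mmu-miR-431-5p, which in mouse has been studied in muscle stem cells and in the regrowth of injured sensory axons, stood at 60.1, 43.4 and 96.4 RPM in SE-BDEV 1, 2 and 3 and at 41.8, 40.3 and 46.4 RPM in CON-BDEV 1, 2 and 3. SE-BDEV 3 and SE-BDEV 1 lay above all CON-BDEV libraries, and SE-BDEV 2 lay among them. mmu-miR-433-3p went the other way, at 34.5, 38.8 and 41.9 RPM in SE-BDEV 1, 2 and 3 and 62.3, 36.6 and 101 RPM in CON-BDEV 1, 2 and 3. Its CON-BDEV 1 and 3 were the high libraries, while CON-BDEV 2 lay within the SE-BDEV range.

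mmu-miR-136-3p stood at 23.0, 21.4 and 53.8 RPM in SE-BDEV 1, 2 and 3 and at 21.6, 18.4 and 20.2 RPM in CON-BDEV 1, 2 and 3. SE-BDEV 3 stood apart and the other 5 lay between 18.4 and 23.0 RPM. The other arm, miR-136-5p, was the rarest of the 10, with 2.66, 3.00 and 7.85 RPM in SE-BDEV 1, 2 and 3 and 2.95, 1.47 and 4.86 RPM in CON-BDEV 1, 2 and 3, which is 12 to 53 reads in a library. Its highest library was SE-BDEV 3 as well. The hairpin of miR-3071 lies over that of miR-136 on the opposite strand, and both its arms were listed at 0 in all 6 libraries.

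mmu-miR-337-3p, the rare arm of its hairpin, stood at 19.8, 9.81 and 16.3 RPM in SE-BDEV 1, 2 and 3 and at 8.18, 10.2 and 11.7 RPM in CON-BDEV 1, 2 and 3. SE-BDEV 1 and 3 lay above all CON-BDEV libraries and SE-BDEV 2 did not. mmu-miR-370-3p stood at 9.16, 7.21 and 13.6 RPM in SE-BDEV 1, 2 and 3 and at 20.9, 7.36 and 16.3 RPM in CON-BDEV 1, 2 and 3. CON-BDEV 1 and 3 were its highest libraries and the groups overlapped.

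**Figure D2:**
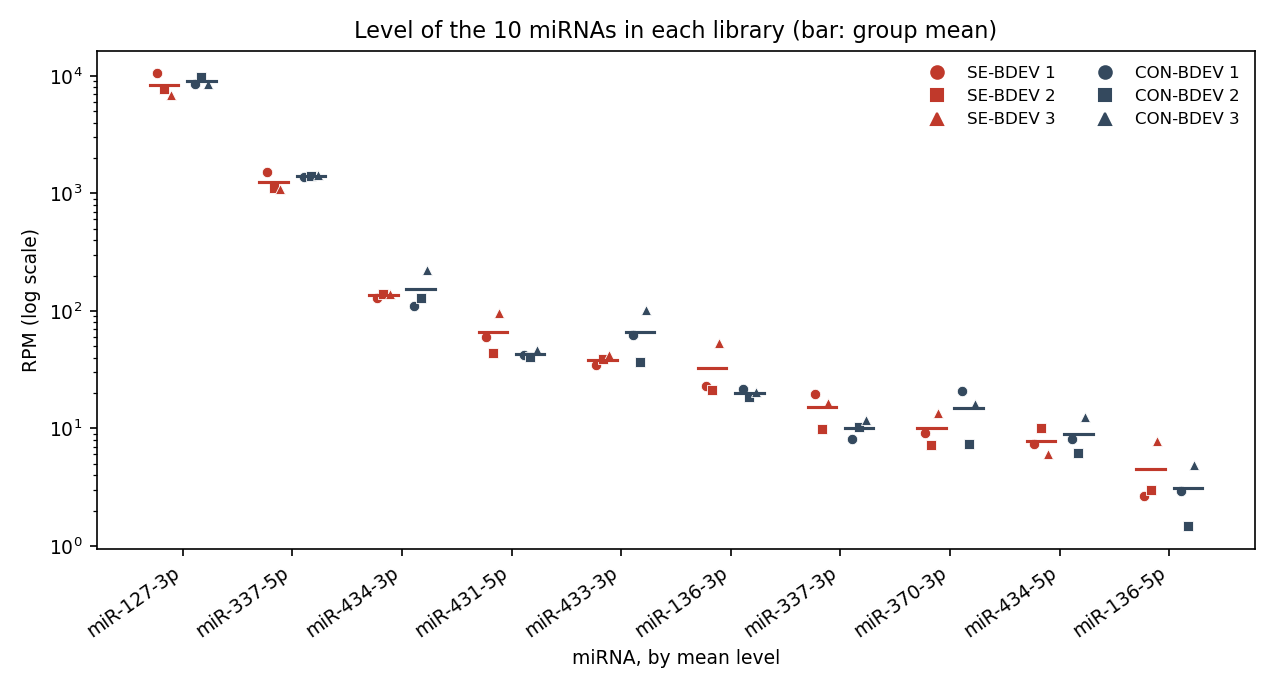
RPM (log axis) of each of the 10 miRNAs in the 6 libraries, ordered by mean level, with SE-BDEV in red left of CON-BDEV in dark. Symbols mark the library number and short bars the group means. The groups overlap for every one of the 10 miRNAs, and the levels span from 1.47 to 10503 RPM.

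The mature sequences are 21 or 22 bases long, so their RPM can be set side by side without a correction for length. In the order of mean RPM over the 6 libraries, miR-127-3p (8673 RPM), miR-337-5p (1322 RPM), miR-434-3p (145 RPM) and miR-431-5p (54.7 RPM) were separated from each other in all 6 libraries with no overlap of their ranges. miR-431-5p and miR-433-3p (52.6 RPM) could not be ordered, since the first was higher in 4 of 6 libraries. miR-433-3p was above miR-136-3p (26.4 RPM) in 5 of 6, and miR-136-3p was above miR-337-3p (12.7 RPM) in 6 of 6 although their ranges overlapped. miR-337-3p and miR-370-3p (12.4 RPM) could not be ordered either, at 4 of 6. miR-434-5p (8.39 RPM) was below miR-370-3p and above miR-136-5p (3.80 RPM) in 5 of 6 libraries each. These comparisons carry no test, and ligation and amplification can favour some small RNA sequences over others.

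The libraries did not move the 10 miRNAs as 1 block. Over the 28 pairs of the 8 miRNAs that averaged at least 10 RPM, likeness was measured as the root mean square difference of log2(RPM + 1) values, each centred on its own mean over the 6 libraries. The most alike pair was miR-127-3p with miR-337-5p at 0.0891, followed by miR-136-3p with miR-431-5p at 0.17, and the least alike was miR-136-3p with miR-433-3p at 0.80. By this measure miRNAs that vary little lie close together. miR-127-3p and miR-337-5p varied least of the 10, by 1.52-fold and 1.39-fold between lowest and highest library. Pairs outside the members were not measured. miR-136-3p, miR-136-5p and miR-431-5p were highest in SE-BDEV 3, whereas miR-433-3p, miR-434-3p and miR-434-5p were highest in CON-BDEV 3. miR-127-3p and miR-337-5p were lowest in SE-BDEV 3. In SE-BDEV 2 all 8 lay below their own means.

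**Figure D3:**
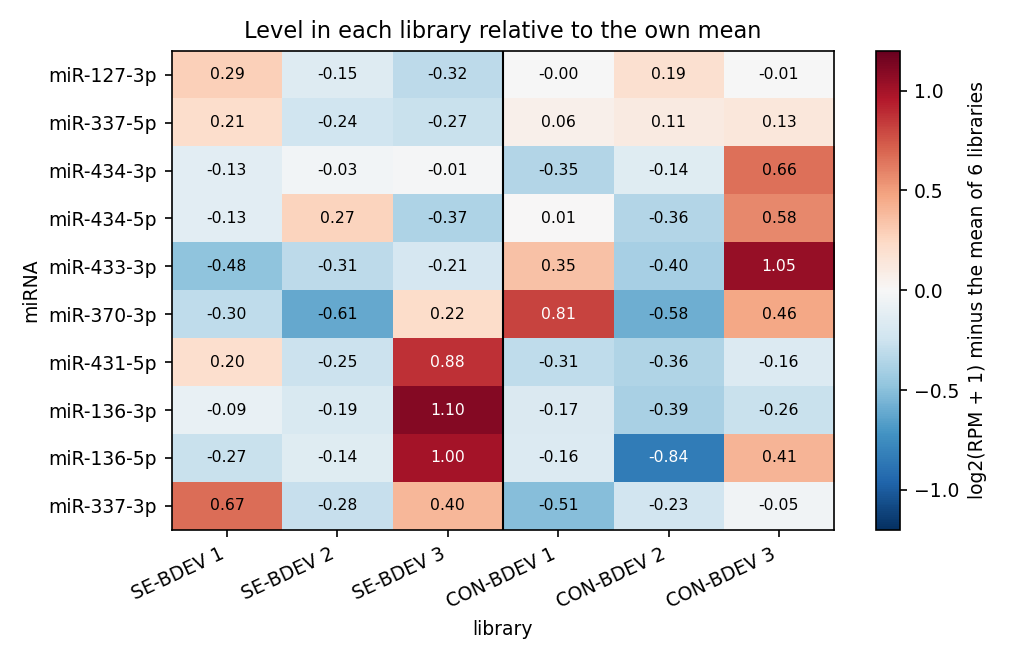
Each cell gives log2(RPM + 1) of a miRNA in a library minus the mean of that miRNA over the 6 libraries, SE-BDEV left of the line and CON-BDEV right of it. The strongest red cells are miR-136-3p in SE-BDEV 3 (1.10) and miR-433-3p in CON-BDEV 3 (1.05), in opposite groups.

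None of the 10 miRNAs passed the threshold when SE-BDEV was set against CON-BDEV, the comparison the study was built for. limma was run on log2(RPM + 1) for all 308 miRNAs that averaged at least 10 RPM, and a miRNA was called where its Benjamini-Hochberg p, adjusted over the 308, lay under 0.05. Of the 10, 8 passed this filter on the mean of all libraries and miR-136-5p and miR-434-5p did not. By limma 0 of the 8 were called, against 0.974% of all tested miRNAs, and 0 of the 8 had an unadjusted p under 0.05, against 10.4%. With same-numbered libraries as a replicate block the count called was again 0 of the 8, against 3.25% of the 308, while miR-433-3p had an unadjusted limma p of 0.0380 there (adjusted p = 0.244). Without the block the log2 fold changes were above 0 for 3 of the 8, against 57.5% of the 308, and below 0 for 5, against 42.5%, with a median of -0.12, beside a median of 0.0606 over all 308. For 0 of the 8 did the groups stand apart without overlap, against 16.2% of the 308 in either direction. At shares as low as the 0.974% called, 8 miRNAs would also give a count of 0, so the counts do not set these miRNAs apart from the rest.

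The largest differences ran in both directions. miR-433-3p averaged 38.4 ± 3.73 RPM in SE-BDEV and 66.7 ± 32.6 RPM in CON-BDEV (SD, n = 3 each), and its log2 fold change was -0.67 ± 0.37 (SE) with a 95% interval from -1.47 to 0.13 and a limma adjusted p of 0.459. Without CON-BDEV 3 it was -0.31 and without CON-BDEV 2 it was -1.03, and the adjusted p over 19 alternatives ran from 0.208 to 0.852. miR-136-3p averaged 32.7 ± 18.2 RPM in SE-BDEV and 20.1 ± 1.59 RPM in CON-BDEV (SD, n = 3 each), and differed by 0.55 ± 0.37 on the log2 scale (SE, limma adjusted p = 0.608) and an interval from -0.25 to 1.36. Without SE-BDEV 3 the value was 0.14. For miR-431-5p the means were 66.6 ± 27.1 RPM in SE-BDEV and 42.8 ± 3.17 RPM in CON-BDEV (SD, n = 3 each), with 0.55 ± 0.34 on the log2 scale (SE, limma adjusted p = 0.570), an interval from -0.18 to 1.29 and 0.25 without SE-BDEV 3.

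The rare arm miR-337-3p averaged 15.3 ± 5.07 RPM in SE-BDEV and 10.0 ± 1.77 RPM in CON-BDEV (SD, n = 3 each), which is 0.53 ± 0.40 on the log2 scale (SE, limma adjusted p = 0.660). It was 0.32 without SE-BDEV 1 and 0.80 without SE-BDEV 2. miR-370-3p averaged 10.0 ± 3.29 RPM in SE-BDEV and 14.8 ± 6.88 RPM in CON-BDEV (SD, n = 3 each), with -0.46 ± 0.46 (SE, limma adjusted p = 0.741), and leaving out 1 library gave -0.86 to -0.17. For both the 95% interval of the log2 fold change included 0, from -0.33 to 1.38 for miR-337-3p and from -1.44 to 0.53 for miR-370-3p.

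Of the 8 tested, the 3 most abundant had the smallest differences and the narrowest intervals. The log2 fold change of miR-127-3p was -0.12 ± 0.20 (SE, limma adjusted p = 0.855) with a 95% interval from -0.55 to 0.32, and it was 0.010 without SE-BDEV 3. For miR-337-5p it was -0.20 ± 0.25 (SE, limma adjusted p = 0.782) with an interval from -0.74 to 0.34, running from -0.35 to -0.11 as single libraries were left out. That of miR-434-3p was -0.11 ± 0.33 (SE, limma adjusted p = 0.921) with an interval from -0.83 to 0.61, and it was 0.19 without CON-BDEV 3. These intervals do not show that the levels were equal, and those of miR-337-5p and miR-434-3p still hold the -0.67 seen for miR-433-3p. The 2 miRNAs under the filter were fitted among the 580 that averaged at least 1 RPM, of which 0.517% were called. There miR-136-5p was at 0.39 ± 0.52 (SE, limma adjusted p = 0.831) and miR-434-5p at -0.15 ± 0.37 (SE, limma adjusted p = 0.947). Without SE-BDEV 3 the log2 difference of miR-136-5p was -0.011, and without CON-BDEV 3 that of miR-434-5p was 0.098.

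In the authors' deposited table, made with DESeq2, 0 of the 10 had an adjusted p under 0.05, against 1.12% of the features with an adjusted p. All 10 log2 fold changes had the same sign there as in the values above. miR-433-3p was the single one with an unadjusted p under 0.05 in the authors' deposited table, at a log2 fold change of -0.83 ± 0.39 (SE, p = 0.0334, adjusted p = 0.477), beside 6.52% of all features with a p. The other log2 fold changes in the authors' deposited table ran from -0.61 (miR-370-3p) to 0.61 (miR-136-3p).

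**Figure D4:**
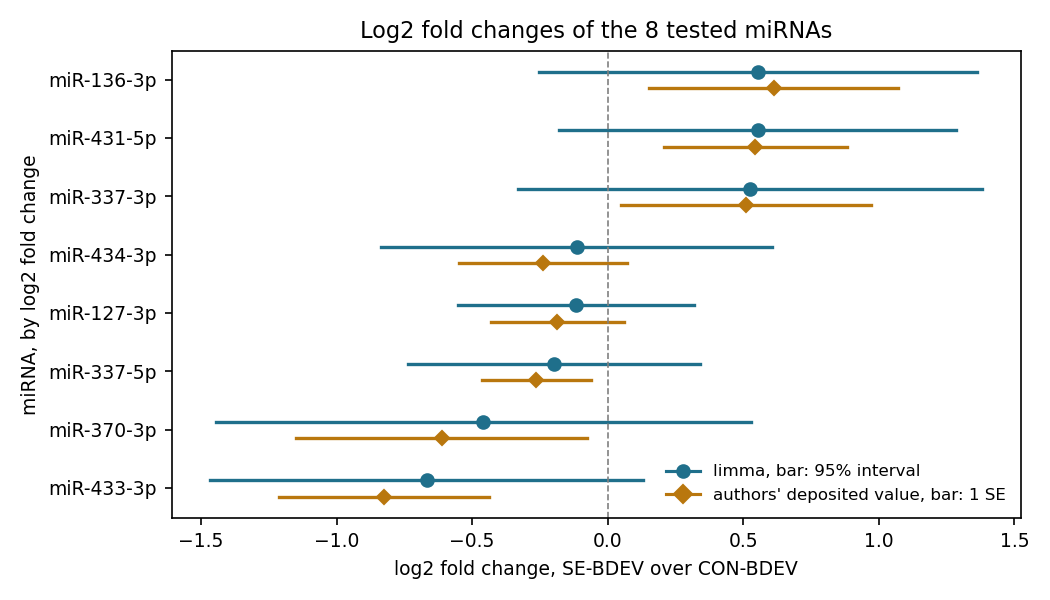
Log2 fold change of SE-BDEV over CON-BDEV for the 8 tested miRNAs, by limma (circles, 95% interval) and in the authors' deposited table (diamonds, 1 SE). All 8 limma intervals include 0, and miR-433-3p lies lowest at -0.67 and -0.83.

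A hairpin gives a 5p and a 3p arm, of which one is usually retained. Their plain RPM ratio within a library does not depend on the scaling between libraries. The tested log2 ratio adds 1 RPM to each arm and can depend on it for rare arms. Both arms were above 0 in all 6 libraries for all 7 hairpins. The 3p arm prevailed for miR-127, by 45.5-fold to 149-fold, for miR-434, by 13.6-fold to 23.1-fold, and for miR-136, by 4.16-fold to 12.5-fold. The 5p arm prevailed for miR-337, by 66.9-fold to 167-fold, and for miR-370, by 2.78-fold to 7.85-fold, so that miR-370-3p was the lesser arm of its hairpin in all 6 libraries. The arms of miR-431 and miR-433 were close to balance, the 5p share over the libraries running from 33.7% to 62.5% for miR-431 and from 38.7% to 65.5% for miR-433.

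For miR-337 the excess of the 5p arm was 76.5-fold, 113-fold and 66.9-fold in SE-BDEV 1, 2 and 3 and 167-fold, 138-fold and 123-fold in CON-BDEV 1, 2 and 3. The ratio was lower in all 3 SE-BDEV libraries than in any CON-BDEV library, and this was the only one of the 7 hairpins whose groups did not overlap. Arm ratios outside the 7 hairpins were not computed, so no share over all hairpins can be set beside this. The mean log2 ratio with 1 RPM added to each arm was 6.28 ± 0.36 in SE-BDEV and 7.01 ± 0.20 in CON-BDEV (SD, n = 3 each), a difference of -0.72. The exact two-sided permutation test gave p = 0.1, the smallest that 3 against 3 can give, and an adjusted p of 0.7 over the 7 hairpins. Leaving out 1 library kept the difference between -0.92 and -0.57. The 3p arm behind it amounted to 36 to 186 reads in a library.

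For miR-433 the log2 ratio of 5p to 3p was 0.91, 0.68 and 0.72 in SE-BDEV 1, 2 and 3 and -0.19, 0.71 and -0.65 in CON-BDEV 1, 2 and 3. The SE-BDEV libraries were close together, and CON-BDEV 2 lay with them while CON-BDEV 1 and 3 had more of the 3p arm. The difference was 0.81 (exact permutation p = 0.2, adjusted p = 0.7 over the 7 hairpins), and it was 0.51 without CON-BDEV 3 and 1.19 without CON-BDEV 2. The 5p arm itself stood at 65.6, 62.6 and 69.9 RPM in SE-BDEV 1, 2 and 3 and at 54.5, 60.5 and 64.0 RPM in CON-BDEV 1, 2 and 3, with a limma log2 fold change of 0.15 ± 0.28 (SE, adjusted p = 0.884). Over the CON-BDEV libraries the 3p arm, with 36.6 to 101 RPM, varied more than the 5p arm.

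miR-431 had a mean log2 ratio of 0.35 ± 0.37 in SE-BDEV and -0.25 ± 0.62 in CON-BDEV (SD, n = 3 each, exact permutation p = 0.3, adjusted p = 0.7). The difference of 0.60 was 0.25 without CON-BDEV 1. The log2 fold change of its 3p arm was -0.0492 ± 0.43 (SE, limma adjusted p = 0.964). The differences were -0.16 for miR-136, 0.0796 for miR-370, -0.0384 for miR-434 and 0.0194 for miR-127, with exact permutation p from 0.8 to 1.0, and each of these 4 changed sign when single libraries were left out. miR-127-5p averaged 116 ± 55.6 RPM in SE-BDEV and 114 ± 22.8 RPM in CON-BDEV (SD, n = 3 each, limma adjusted p = 0.950). miR-370-5p stood at 53.5, 35.2 and 50.7 RPM in SE-BDEV 1, 2 and 3 and at 58.2, 57.8 and 63.4 RPM in CON-BDEV 1, 2 and 3. Its 3 SE-BDEV values lay below all CON-BDEV values, as did those of 5.52% of the 308 miRNAs, and its log2 fold change was -0.38 ± 0.30 (SE, limma adjusted p = 0.673).

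**Figure D5:**
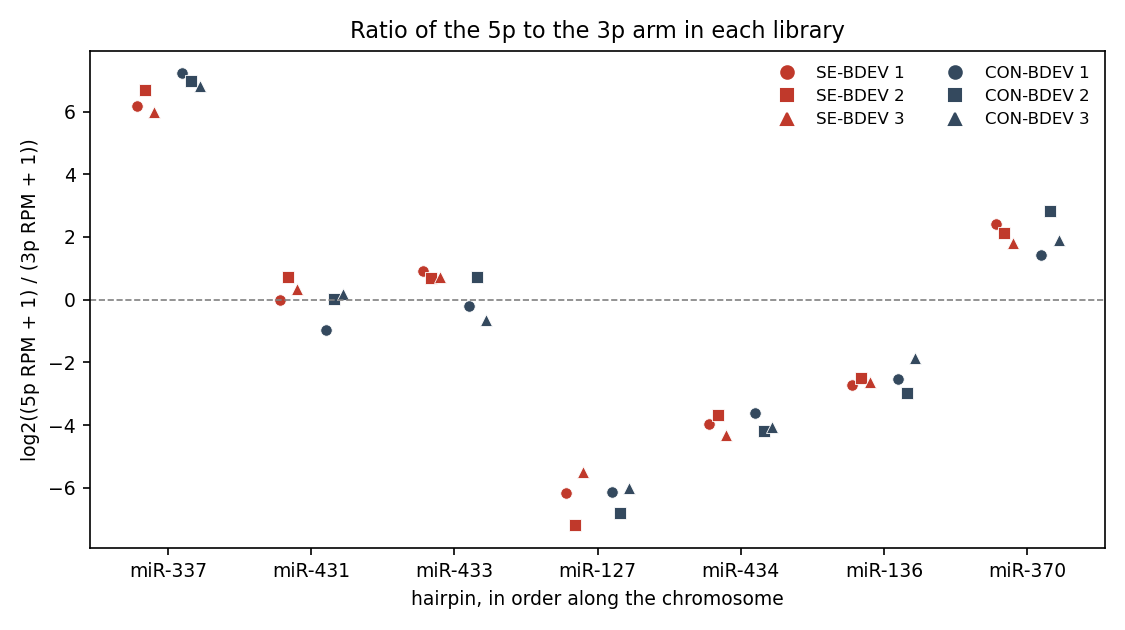
Log2 ratio of the 5p to the 3p arm, with 1 RPM added to each, in every library for the 7 hairpins in their order along the chromosome, SE-BDEV in red left of CON-BDEV in dark. Values above the dashed line mean more 5p. miR-337 lies highest, with SE-BDEV from 5.98 to 6.69 and CON-BDEV from 6.82 to 7.22.

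The other miRNAs of the Dlk1-Dio3 region were taken from a list of 56 hairpin names, which includes the other arms of the members' own hairpins. It gave 99 rows beside the 10, of which 79 were above 0 in some library and 43 were tested. By limma 0 of the 43 were called, against 0.974% of the 308, and 2 had an unadjusted p under 0.05, against 10.4%. The log2 fold change was above 0 for 17, against 57.5% of the 308, and below 0 for 26, against 42.5%. The median was -0.10, beside 0.0606 over all 308. Groups did not overlap for 1 of the 43 higher in SE-BDEV, against 10.7%, and for 3 lower, against 5.52%. miR-370-5p was among these 3. Of the 43, those of largest positive log2 fold change were miR-376c-3p (1.09, limma adjusted p = 0.344), miR-376b-3p (0.49) and miR-376a-3p (0.42), which are related in sequence. miR-376c-3p stood at 108, 123 and 239.9 RPM in SE-BDEV 1, 2 and 3 and at 45.7, 77.0 and 91.7 RPM in CON-BDEV 1, 2 and 3, so its groups did not overlap, as those of 10.7% of the 308 miRNAs in that direction. Those of largest negative log2 fold change were miR-667-3p (-1.003, limma adjusted p = 0.438), miR-770-3p (-0.72) and miR-485-3p (-0.72).

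Outside the region, the 5 of 257 tested miRNAs whose centred log2(RPM + 1) values over the 6 libraries lay nearest to the mean profile of the 8 tested members were miR-181b-5p, the neuronal miR-124-3p, miR-30b-3p, miR-139-5p and miR-30d-5p. Their root mean square differences were 0.0638, 0.0734, 0.11, 0.12 and 0.14. The members themselves lay 0.26 (miR-337-5p) to 0.47 (miR-433-3p) from their own mean profile, beside a median of 0.38 for the 257. That mean profile ran only from -0.26 in SE-BDEV 2 to 0.23 in CON-BDEV 3, so miRNAs that vary little lie near it. Likeness of the 5 to single members was not measured.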

How the data were processed

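The labels' protocols name the miRNeasy Micro Kit, a DNase step and the QIAseq miRNA Library Kit. The files the authors deposited are RPM values for 1926 miRNA features in 6 libraries, 803 of them above 0 in some library, and a table of their own comparison with a mean normalized signal, log2 fold changes with standard errors, a test score and p-values. DESeq2 and the build mm9 are named in the submitters' processing notes. Aligner, counting tool and any collapsing of reads by molecular identifier: not given in the sources used here.

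In each library the smallest value above 0 was taken as 2 reads, which sets the step of 1 read. Every RPM value was a whole multiple, within 0.001, of that step. The 2 is thus assumed, and whether the unit is a read or a molecule is not known. At this step single reads are not listed, so no count model was fitted. limma 3.58.1 in R 4.3.3 (statmod 1.5.0) was run on log2(RPM + 1), two-sided, with a trended and robust empirical Bayes step, for miRNAs averaging at least 10 RPM. Log2 fold changes are on that scale, which understates the change of rare miRNAs. Arm ratios were tested with an exact permutation test in scipy 1.17.1. Depth limits precision, and read numbers describe counting error only. The fit was tested on simulated data. Alternatives covered pseudocount, filter, scaling, weights, replicate block and left-out libraries.

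The deviations of same-numbered libraries had correlations of 0.216, 0.202 and 0.462 over the tested miRNAs, but of -0.0639, -0.0614 and -0.0806 without miR-24-3p. The labels say nothing of pairs. All 3 correlations were above 0.1 only through miR-24-3p, so a pairing of the libraries was not shown. The unblocked fit stayed the main one, and a blocked fit was run beside it as an alternative. The members and lists were chosen with earlier results of these data known. All 10 members, the other arms of their hairpins, the 3 listed miRNAs of the region with the largest change in each direction and the 5 most alike were named by rule. Sequences came from RefSeq (GRCm38.p6) and Rtl1 from GENCODE M21. Figures were drawn with matplotlib 3.10.9.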

Additional observations from a re-analysis of the deposited data

How the results depend on the processing

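None of the 10 miRNAs was called in any of the 20 alternatives that tested it, and the smallest adjusted p was 0.208 (miR-433-3p without CON-BDEV 2). miR-136-5p and miR-434-5p were tested only at a lower filter or none, and 3 of the 10 averaged at least 100 RPM. miR-433-3p had an unadjusted limma p of 0.0387 with median-of-ratios scaling, 0.0499 with quantile scaling, 0.0111 without CON-BDEV 2 and 0.0385 in the block without miR-24-3p, and miR-431-5p one of 0.0329 without SE-BDEV 2. Over all miRNAs, against 3 called, 1 was called among those averaging at least 100 RPM, 6 with array weights, 10 with the replicate block, 10 when miR-24-3p was also dropped from the blocked fit, and 2 to 8 as single libraries were left out, the 8 without CON-BDEV 2. The block called none of the 8 members it tested, and its calls for the other miRNAs of the region are not given here. The runs without miR-24-3p and without both libraries numbered 3 were chosen after seeing the data. Signs turned for miR-127-3p (0.017 with array weights, -0.29 to 0.010 without 1 library) and miR-434-3p (0.17 without both libraries numbered 3, -0.32 to 0.19 without 1 library), and for the untested miR-136-5p (-0.011 to 0.69) and miR-434-5p (-0.37 to 0.098) without 1 library. Arm ratio differences turned for miR-434 (0.027 with 10 RPM added, -0.20 to 0.13 without 1 library), miR-370 (-0.036 with 10 RPM added, -0.23 to 0.46), miR-127 (-0.38 to 0.47) and miR-136 (-0.42 to 0.13), all uncalled, and the cause was not tested. The paired permutation gave p = 0.25 for the miR-337 and miR-431 ratios, the smallest 3 pairs allow. No scaling turned the sign of any of the 8. The count fits were not run because single reads are not listed at the step assumed.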

Other observations

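The hairpins around the 7 described here gave listed zeros as well as measured levels. Zeros are common here, as only 803 of the 1926 rows were above 0 in some library. A listed 0 does not show absence, since miR-24-3p was at 0 in some libraries and abundant in others. Of the other hairpins within Rtl1, miR-432, on the strand of the antisense transcript, was listed at 0 in all 6 libraries, as were both arms of miR-3071 on the opposite strand. Close to miR-337, the 3p arm of miR-540 stood at 156 ± 42.7 RPM in SE-BDEV and 143 ± 23.4 RPM in CON-BDEV and that of miR-665 at 49.2 ± 27.0 RPM in SE-BDEV and 34.5 ± 11.02 RPM in CON-BDEV (SD, n = 3 each), while their 5p arms were listed at 0 throughout. The same held for miR-341, between miR-136 and miR-370, with the 3p arm at 161 ± 66.8 RPM in SE-BDEV and 182 ± 34.6 RPM in CON-BDEV (SD, n = 3 each). None of these passed the threshold (limma adjusted p from 0.782 to 0.921).

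miR-770, whose hairpin lies within Meg3, gave both arms. Its 3p arm stood at 137, 104 and 203 RPM in SE-BDEV 1, 2 and 3 and at 409.5, 181 and 176 RPM in CON-BDEV 1, 2 and 3, with CON-BDEV 1 above all others (log2 fold change -0.72 ± 0.39, SE, limma adjusted p = 0.457). Its 5p arm was likewise highest in CON-BDEV 1, at 147 RPM, against 32.4 to 101 RPM in the other 5 libraries.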
